A study of Mus musculus with 6 samples.

Results

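Proteasome subunit genes were followed in RNA sequencing libraries of mouse oocytes. The members are the protein-coding genes of the deposited count table whose symbols begin with Psma, Psmb, Psmc, Psmd, Psme, Psmf or Psmg and a digit, 50 genes of 54532 in the table (22046 of them protein-coding). They fall into 19 genes of the core particle (8 Psma and 11 Psmb), 25 of the caps (6 Psmc, 14 Psmd and 5 Psme) and 6 others, which are the inhibitor Psmf1, the assembly chaperones Psmg1 to Psmg4, and Psmc3ip, a meiotic recombination factor named for binding Psmc3 and not a subunit. The series holds 3 AMH libraries (oocytes of C57BL/6J mice given daily intraperitoneal recombinant mouse AMH, 300 ng, from 21 days of age) and 3 control libraries (oocytes of C57BL/6J mice labelled as control). All mice are labelled 6 to 7 weeks old. AMH, anti-Müllerian hormone, is a TGF-beta family hormone of the granulosa cells of growing follicles, and the recombinant protein was made in bacteria. The labels do not say what the controls received, how many oocytes or animals went into a library, at which stage the oocytes were, or whether cumulus cells were removed, so each p-value covers the variation among these 6 libraries alone, part of which may be technical.

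The proteasome degrades proteins tagged with ubiquitin. Its core is a barrel of stacked rings: outer alpha rings (Psma genes), which gate the entrance, and inner beta rings (Psmb genes), of which Psmb5, Psmb6 and Psmb7 carry the cutting sites. Psmb8, Psmb9 and Psmb10 can replace these 3 to give the immunoproteasome, which is known from immune and interferon-treated cells, Psmb11 replaces Psmb5 in cortical thymic epithelium, and Psma8 replaces Psma7 in male germ cells. The regulatory cap has a base of ATPases (Psmc genes) that unfold substrates and a lid (most Psmd genes) that removes ubiquitin. Psme genes encode other activators of the core. In oocytes the proteasome is known for destroying cyclin B and securin as meiosis proceeds.

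Depth was 66392859 to 72109080 counts per library, and the members took 0.479 to 0.539% of them in AMH libraries and 0.390 to 0.432% in controls. Values per gene are CPM, counts relative to a library size scaled by TMM (a trimmed mean of ratios between libraries), and levels of different genes are set side by side per length, as the deposited FPKM. Of 24 oocyte markers 23 passed the filter on low counts, and Sohlh1 had between 0 and 10 counts. The 24 summed to 18478, 17675 and 29553 CPM in AMH 1, 2 and 3, against 36349, 39719.8 and 30397 CPM in controls 1, 2 and 3. Markers of other cells were present too. The 19 cumulus and granulosa markers summed to 2783, 2419.7 and 2812 CPM in AMH 1, 2 and 3, against 572, 382 and 2915 CPM in controls 1, 2 and 3, so control 3 lay above all AMH libraries. The 7 oviduct epithelium markers summed to 722, 415 and 138 CPM in AMH 1, 2 and 3, against 69.2, 21.2 and 169.6 CPM in controls 1, 2 and 3. The 14 immune markers summed to 108, 141 and 108 CPM in AMH 1, 2 and 3, against 29.4, 19.4 and 54.2 CPM in controls 1, 2 and 3. In such bulk samples, fewer cells of a type and less RNA per cell cannot be told apart.

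Most proteasome transcripts had higher values in AMH than in control oocytes, but several of the most abundant cap transcripts had lower ones relative to all genes, and no member passed edgeR's test. All 50 members passed the filter on low counts. Their median log2 fold change, AMH over control, was 0.60, beside -0.011 for all 18868 genes tested, and 37 members were positive and 13 negative. In 31 members every AMH library lay above every control, as did 26.9% of all genes tested, and in 6 every AMH library lay below every control, as did 23.3%. The median was 1.09 for the core, 0.38 for the caps and 0.56 for the 6 other genes. edgeR's quasi-likelihood test with Benjamini-Hochberg adjustment over all genes called 0 members higher (0% of all genes) and 0 lower (0%), and the smallest adjusted p among the 50 was 0.116. Before adjustment, 26 members were higher and 5 lower at p under 0.05, beside 20.2% and 17.3% of all genes. limma-voom called 0 members, and DESeq2 called 24 higher and 0 lower, where it called 18.0% of its genes higher and 8.64% lower. The 24 were Psma3, Psma4, Psma5, Psma6, Psma8, Psmb1, Psmb4, Psmb5, Psmb7, Psmb8, Psmb9 and Psmb10 of the core, Psmc1, Psmc2, Psmc3, Psmc4, Psmc5, Psmd6, Psmd14, Psme1, Psme2 and Psme2b of the caps, and Psmg3 and Psmg4.

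**Figure D1:**
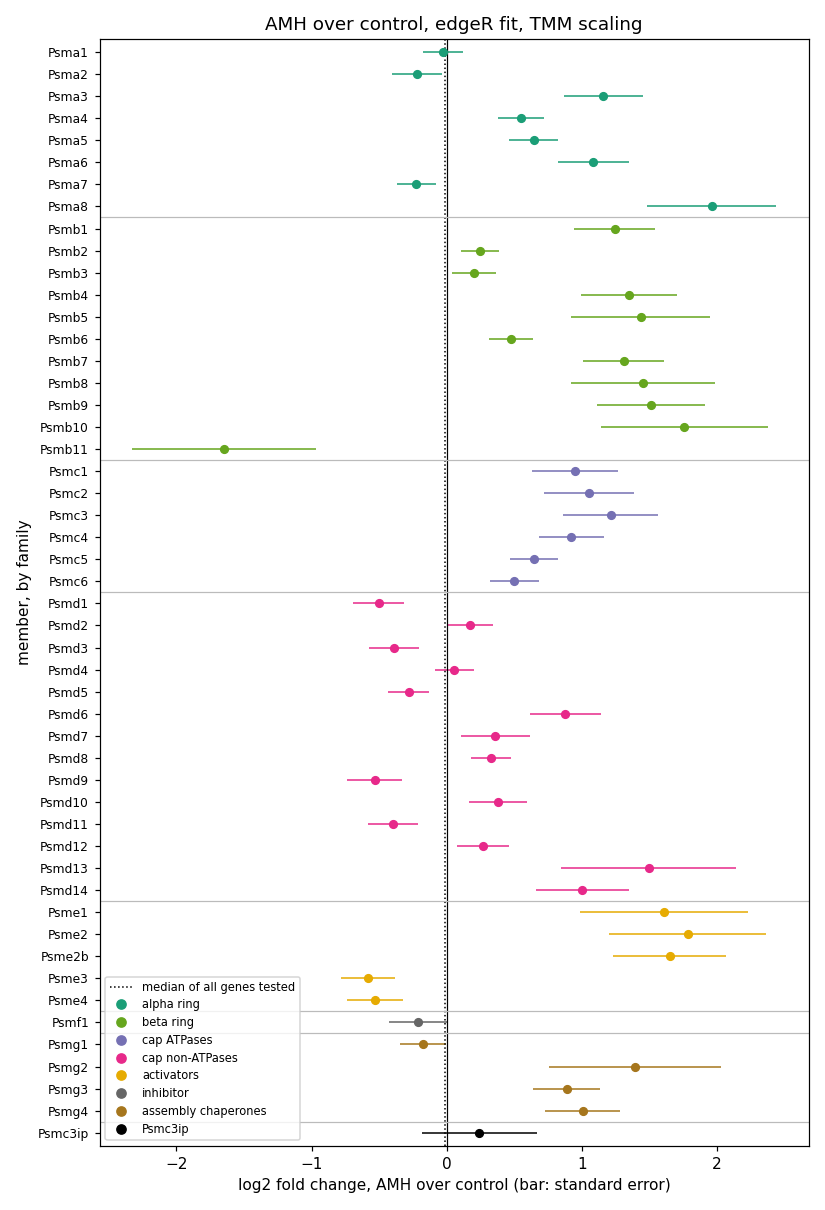
Log2 fold change of each of the 50 members, AMH over control, from the edgeR fit with TMM scaling; points are estimates, bars standard errors, colours families, and the dotted line the median of all genes tested. All 6 cap ATPases lie right of 0, while the cap non-ATPases run from -0.53 to 1.49 and the activators split, with Psme3 and Psme4 left of 0 (both right of 0 with scaling to the oocyte markers).

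The alpha ring divided by level. Its 5 members of lower CPM had higher values in AMH libraries, while Psma1, Psma2 and Psma7, the highest in CPM, had slightly lower ones, which turned positive with scaling by library size only and with scaling to the oocyte markers. Psma6, an outer-ring subunit (chromosome 12, 55384222 to 55418454, build GRCm38 as for all positions here), had 73.6, 66.3 and 48.2 CPM in AMH 1, 2 and 3, against 31.4, 21.4 and 35.9 CPM in controls 1, 2 and 3. Its log2 fold change was 1.09 (SE 0.26, adjusted p = 0.116). Psma3 had 49.4, 46.4 and 37.2 CPM in the AMH libraries, against 21.00, 12.7 and 25.8 CPM in the controls. In both genes every AMH library lay above every control. Psma5 had 61.2, 53.1 and 51.9 CPM in the AMH libraries, against 34.99, 30.6 and 40.8 CPM in the controls, also without overlap, and Psma4 had a smaller log2 fold change of 0.55 (SE 0.17). Psma7, the most abundant alpha subunit per length, had 302, 305 and 266 CPM in the AMH libraries, against 347, 351 and 321 CPM in the controls, with every AMH library below every control. Its log2 fold change was -0.22 (SE 0.15, adjusted p = 0.261). Psma2 had 239.9, 218 and 318 CPM in the AMH libraries, against 302, 292 and 312 CPM in the controls, and here AMH 3 was the highest of all 6 libraries. Psma1 had 117, 103 and 124 CPM in the AMH libraries, against 124, 113 and 113 CPM in the controls, and the groups overlapped. Psma8, the germ-cell form of Psma7 in males, was low throughout. It had 103, 89 and 104 counts in AMH 1, 2 and 3, against 21, 11 and 35 counts in controls 1, 2 and 3, which is a log2 fold change of 1.96 (SE 0.48). Per length it reached 1.08% of Psma7 in AMH 3 and at most 0.300% in a control.

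The catalytic beta subunits all had higher values in AMH libraries, by different amounts. Psmb5, which carries the chymotrypsin-like site (chromosome 14, 54614119 to 54618022), had 90.4, 86.1 and 68.5 CPM in AMH 1, 2 and 3, against 27.3, 11.3 and 51.98 CPM in controls 1, 2 and 3. The controls differed among themselves by more than the AMH libraries did, with control 2 the lowest and control 3 the nearest to the AMH range. Its log2 fold change was 1.44 (SE 0.51, adjusted p = 0.118). Psmb6, with the caspase-like site (chromosome 11, 70525367 to 70527858), had 192, 174 and 204 CPM in the AMH libraries, against 139, 118 and 153 CPM in the controls. It was the most abundant beta subunit in CPM and had a log2 fold change of 0.47 (SE 0.16, adjusted p = 0.117). Psmb7, with the trypsin-like site (chromosome 2, 38588036 to 38644087), had 24.03, 20.2 and 16.9 CPM in the AMH libraries, against 7.21, 6.28 and 11.2 CPM in the controls. Its groups did not overlap, and its log2 fold change was 1.31 (SE 0.30, adjusted p = 0.116), the smallest unadjusted p of the 50 members. Psmb7 shares 6571 bases of its span with Nek6 on the other strand, and whether the counting used strand is not given in the sources used here, so its counts are uncertain.

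Of the non-catalytic beta subunits, Psmb1 had 85.9, 78.1 and 62.5 CPM in the AMH libraries, against 33.4, 19.8 and 42.6 CPM in the controls. Psmb4 had 67.9, 59.4 and 54.5 CPM in the AMH libraries, against 21.8, 13.7 and 35.9 CPM in the controls. In both, all AMH libraries were above all controls, with log2 fold changes of 1.24 (SE 0.30) and 1.35 (SE 0.35). Psmb2 and Psmb3, which are abundant in control oocytes, differed little, with log2 fold changes of 0.25 (SE 0.14) and 0.20 (SE 0.16). Psmb2 still had no overlap, at 80.1 to 90.00 CPM in AMH libraries and 70.8 to 73.4 CPM in controls.

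The immunoproteasome subunits had higher values in every AMH library as well. Psmb8, the replacement of Psmb5 (chromosome 17, 34197721 to 34201454), had 12.3, 9.92 and 6.01 CPM in the AMH libraries, against 3.92, 1.36 and 5.04 CPM in the controls. Psmb9, the replacement of Psmb6 (chromosome 17, 34181988 to 34187764), had 3.30, 2.42 and 1.999 CPM in the AMH libraries, against 1.05, 0.546 and 1.11 CPM in the controls. Psmb10, the replacement of Psmb7 (chromosome 8, 105935735 to 105938444), had 19.3, 17.7 and 12.8 CPM in the AMH libraries, against 5.71, 1.28 and 7.75 CPM in the controls. All 3 were lowest in control 2 and, among AMH libraries, lowest in AMH 3, with log2 fold changes of 1.45 (SE 0.53), 1.51 (SE 0.40) and 1.76 (SE 0.62). Set against their standard counterparts per length, they did not move alike. Psmb8 was 4.48, 3.79 and 2.88 percent of Psmb5 in AMH 1, 2 and 3, against 4.73, 3.93 and 3.18 in controls 1, 2 and 3, so this share overlapped between groups. Psmb9 was 0.881, 0.711 and 0.502 percent of Psmb6 in AMH 1, 2 and 3, against 0.388, 0.236 and 0.370 in controls 1, 2 and 3, with every AMH library higher. Psmb10 was 162, 176 and 152 percent of Psmb7 in AMH 1, 2 and 3, against 159, 40.8 and 139 in controls 1, 2 and 3, and control 2 alone stood apart. These shares rest on the deposited gene lengths, 1705 bases for Psmb10 and 3421 for Psmb7, which may be longer than the main transcript. Psmb9 shares 212 bases of its span with Tap1 on the other strand. Psmb11, the thymic form, had 8, 12 and 10 counts in AMH 1, 2 and 3, against 20, 52 and 11 counts in controls 1, 2 and 3. It had the lowest mean CPM of the 50 members and was the only beta gene with a negative log2 fold change, -1.65 (SE 0.68), joined by Psmb3 at -0.019 with upper-quartile scaling.

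**Figure D2:**
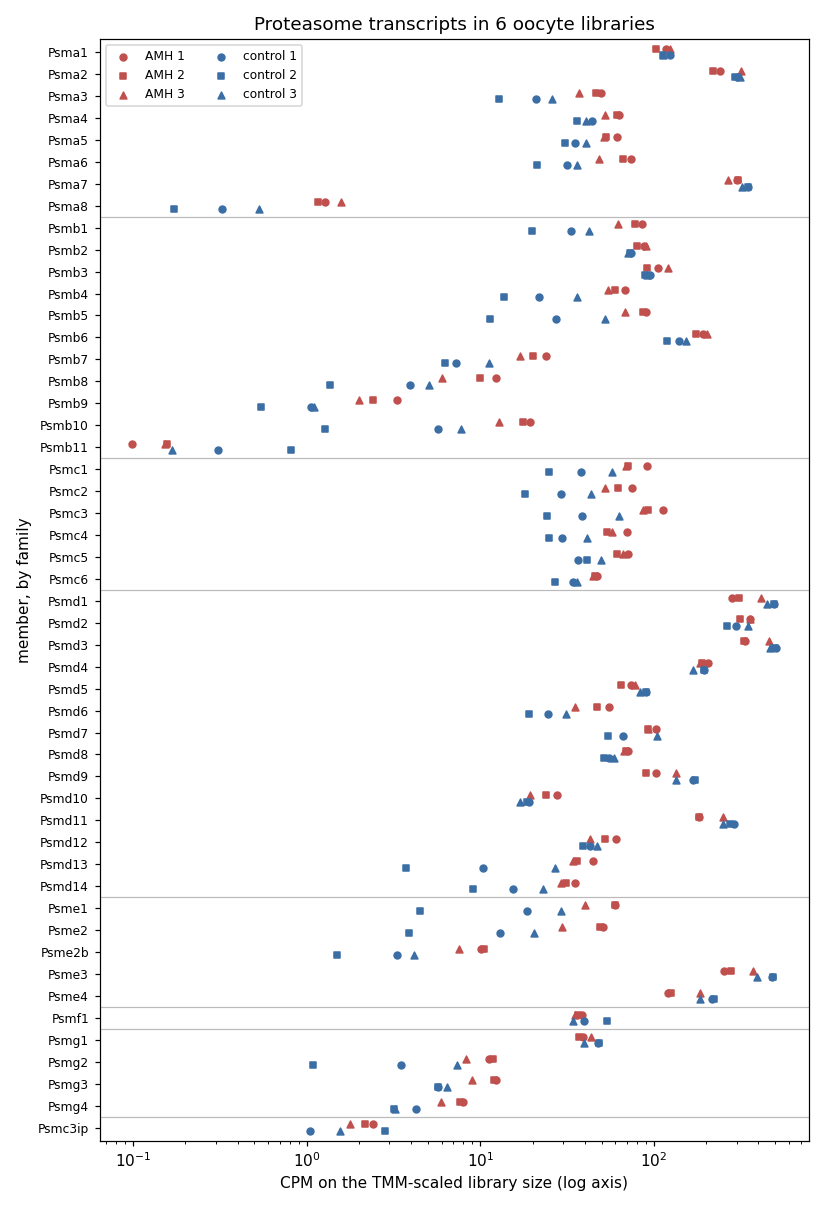
CPM of every member in each library on a log axis, with AMH libraries in red above control libraries in blue; circles, squares and triangles are libraries 1, 2 and 3. Control 2 (blue square) is the lowest of all 6 libraries for 31 of 50 members; the like share of all genes is not given here. Control 2 also has the lowest median FPKM over all genes tested, 1.35, beside 1.70 to 2.43 in the other libraries. Triangles of both colours, AMH 3 and control 3, often lie closest together.

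All 6 ATPases of the cap base had higher values in AMH libraries, and in none did the groups overlap. Psmc3, an ATPase of the base (chromosome 2, 91054009 to 91066369), had 113, 92.3 and 86.4 CPM in AMH 1, 2 and 3, against 38.5, 24.3 and 63.2 CPM in controls 1, 2 and 3. Its log2 fold change was 1.21 (SE 0.35, adjusted p = 0.116). Psmc3 shares 4579 bases of its span with Slc39a13 on the other strand. Psmc2 had 74.4, 61.8 and 52.6 CPM in the AMH libraries, against 29.1, 18.2 and 43.7 CPM in the controls. Psmc1 had 91.9, 71.3 and 68.9 CPM in the AMH libraries, against 38.3, 24.7 and 57.2 CPM in the controls. Control 3 was the highest control for all 3, and AMH 1 the highest AMH library. Psmc4 had 70.4, 53.6 and 57.5 CPM in the AMH libraries, against 29.6, 24.97 and 41.3 CPM in the controls. Psmc5, the most abundant ATPase per length, had 71.2, 61.3 and 66.5 CPM in the AMH libraries, against 36.6, 41.1 and 49.4 CPM in the controls. The log2 fold changes of Psmc4, Psmc5 and Psmc6 were 0.92 (SE 0.24), 0.65 (SE 0.18) and 0.50 (SE 0.18). The median of the family was 0.94.

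The non-ATPase subunits went both ways. Psmd1, Psmd3 and Psmd11, among the most abundant, had lower values in AMH libraries with TMM and positive log2 fold changes with scaling to the oocyte markers. Psmd1, a scaffold of the base (chromosome 1, 86064387 to 86139151), had 283, 310.4 and 416 CPM in AMH 1, 2 and 3, against 489, 493 and 449 CPM in controls 1, 2 and 3. Psmd3, a lid subunit (chromosome 11, 98682554 to 98695979), had 334, 331 and 462 CPM in the AMH libraries, against 507, 498 and 469 CPM in the controls. Psmd11, another lid subunit, had 183, 182 and 251 CPM in the AMH libraries, against 288, 275 and 249 CPM in the controls. In Psmd1 and Psmd3 every AMH library lay below every control, but AMH 3 came near the controls, and in Psmd11 it lay within their range. The log2 fold changes of the 3 genes were -0.50 (SE 0.19, adjusted p = 0.120), -0.39 (SE 0.19) and -0.40 (SE 0.18). Psmd9, an assembly chaperone of the base (chromosome 5, 123169413 to 123250131), had 103, 89.6 and 135 CPM in the AMH libraries, against 168, 172 and 134 CPM in the controls, again with AMH 3 inside the control range. Its log2 fold change was -0.53 (SE 0.21, adjusted p = 0.122). Psmd2, the second scaffold of the base, had 357, 314 and 358 CPM in the AMH libraries, against 298, 263 and 349 CPM in the controls, with overlap and a log2 fold change of 0.18 (SE 0.17). Psmd4, a ubiquitin receptor, had a log2 fold change of 0.056 (SE 0.15).

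Other lid genes, less abundant in control oocytes, had higher values in AMH libraries. Psmd14, the deubiquitinase of the lid (chromosome 2, 61711694 to 61800376), had 35.2, 31.2 and 29.02 CPM in the AMH libraries, against 15.4, 9.13 and 23.1 CPM in the controls. Psmd6 had 55.3, 46.9 and 35.2 CPM in the AMH libraries, against 24.4, 19.2 and 31.1 CPM in the controls. Psmd13 had 44.9, 36.2 and 34.4 CPM in the AMH libraries, against 10.3, 3.76 and 26.9 CPM in the controls. In all 3 every AMH library lay above every control, with log2 fold changes of 1.00 (SE 0.35, adjusted p = 0.117), 0.88 (SE 0.26) and 1.49 (SE 0.65). Psmd8 had 70.7, 68.9 and 67.3 CPM in the AMH libraries, against 54.8, 51.4 and 58.6 CPM in the controls, a smaller difference with a log2 fold change of 0.33 (SE 0.15). Psmd12 and Psmd7 overlapped between groups, with log2 fold changes of 0.27 (SE 0.19) and 0.36 (SE 0.25). The chaperones of the base Psmd5 and Psmd10 had log2 fold changes of -0.28 (SE 0.15) and 0.38 (SE 0.22).

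The activators split by kind. Psme1 and Psme2 form the ring known as PA28 alpha and beta, which is induced by interferon gamma, Psme3 forms the nuclear PA28 gamma ring, and Psme4 is the activator PA200. Their promoters are shown because the 2 pairs lay on opposite sides of 0, with those of Psmb5, the standard catalytic subunit of highest log2 fold change, and of Psmd1, a scaffold with lower values. Each is 250 bases before to 50 after the start of a RefSeq transcript, build GRCm38.p6, 5′ to 3′ on the gene's strand. Positions are chr14:55578244-55578543 for Psme1 (plus strand), chr14:55591052-55591351 for Psme2 (minus strand), chr11:101315963-101316262 for Psme3 (plus strand), chr11:30771525-30771824 for Psme4 (plus strand), chr14:54617946-54618245 for Psmb5 (minus strand) and chr1:86064369-86064668 for Psmd1 (plus strand); Psme2 has a further start, not shown. Capitals mark 4 letter patterns searched on both strands. TGANNNNGC is a loose pattern for the core of the antioxidant response element, which Nfe2l1 and Nfe2l2 are known to bind. Not every match to it is that core. CCAAT is bound by NF-Y. TTTC followed after any 2 bases by a further TTTC is part of the interferon-stimulated response element, and TTCNNNGAA is the STAT pattern. No matches of different patterns overlap in these 6.
Psme1: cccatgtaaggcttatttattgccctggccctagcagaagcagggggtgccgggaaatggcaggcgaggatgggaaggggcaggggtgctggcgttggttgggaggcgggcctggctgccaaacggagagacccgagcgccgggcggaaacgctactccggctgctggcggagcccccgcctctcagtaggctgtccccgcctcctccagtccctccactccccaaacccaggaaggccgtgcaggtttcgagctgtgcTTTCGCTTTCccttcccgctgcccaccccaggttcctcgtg
Psme2: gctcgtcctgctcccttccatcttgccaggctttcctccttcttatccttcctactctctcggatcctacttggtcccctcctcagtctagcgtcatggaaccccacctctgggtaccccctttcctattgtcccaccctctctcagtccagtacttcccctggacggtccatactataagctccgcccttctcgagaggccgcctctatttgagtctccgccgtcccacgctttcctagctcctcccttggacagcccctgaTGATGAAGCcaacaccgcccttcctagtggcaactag
Psme3: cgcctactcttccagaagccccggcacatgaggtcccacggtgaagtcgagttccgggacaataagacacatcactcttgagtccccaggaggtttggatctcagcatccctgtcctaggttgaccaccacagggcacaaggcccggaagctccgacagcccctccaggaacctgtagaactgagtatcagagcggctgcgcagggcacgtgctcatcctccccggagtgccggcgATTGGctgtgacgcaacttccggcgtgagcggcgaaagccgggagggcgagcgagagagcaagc
Psme4: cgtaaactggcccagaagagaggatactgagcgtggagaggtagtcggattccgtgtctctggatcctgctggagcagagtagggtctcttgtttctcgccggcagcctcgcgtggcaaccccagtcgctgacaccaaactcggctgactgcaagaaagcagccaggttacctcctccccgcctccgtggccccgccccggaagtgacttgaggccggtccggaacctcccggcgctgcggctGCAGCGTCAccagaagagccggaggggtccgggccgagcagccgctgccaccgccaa
Psmb5: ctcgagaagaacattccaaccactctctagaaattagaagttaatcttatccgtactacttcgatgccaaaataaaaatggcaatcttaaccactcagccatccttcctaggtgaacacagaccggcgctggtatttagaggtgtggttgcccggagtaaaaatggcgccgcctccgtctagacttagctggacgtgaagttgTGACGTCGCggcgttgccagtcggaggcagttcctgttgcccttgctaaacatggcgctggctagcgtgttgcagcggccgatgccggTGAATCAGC
Psmd1: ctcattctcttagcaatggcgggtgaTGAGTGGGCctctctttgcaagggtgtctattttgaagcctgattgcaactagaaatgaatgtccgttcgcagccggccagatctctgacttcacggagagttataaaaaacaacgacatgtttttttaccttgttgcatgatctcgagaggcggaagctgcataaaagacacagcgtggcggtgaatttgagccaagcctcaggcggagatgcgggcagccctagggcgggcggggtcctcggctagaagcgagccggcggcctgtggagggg

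Psme1 holds the repeated TTTC, Psme3 holds CCAAT as its complement, and Psme2, Psme4, Psmb5 and Psmd1 hold TGANNNNGC, Psme4 on the opposite strand. TGANNNNGC stood in promoters of genes with higher and with lower values among these 6, which were picked by direction. Of the 50 members 42 matched the RefSeq promoter table, with 45 promoters, of which 57.8% held TGANNNNGC, beside 41.3% of all 32851 promoters. CCAAT stood in 33.3% of the members' promoters, beside 37.4% of all, the repeated TTTC in 11.1%, beside 3.44%, and TTCNNNGAA in 6.67%, beside 8.30%. A match is a description of letters, not a bound site.

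In the libraries, Psme1 (chromosome 14, 55578123 to 55581529) had 59.6, 60.03 and 40.3 CPM in AMH 1, 2 and 3, against 18.5, 4.47 and 29.4 CPM in controls 1, 2 and 3. Psme2, which lies beside it (chromosome 14, 55587441 to 55591113), had 50.7, 48.7 and 29.4 CPM in the AMH libraries, against 13.00, 3.90 and 20.5 CPM in the controls. Both followed the same order of libraries among controls, control 2 lowest and control 3 highest, and their FPKM stayed near 1 to 1, with Psme1 at 91.7 to 114% of Psme2 over the 6 libraries. Their log2 fold changes were 1.61 (SE 0.62, adjusted p = 0.122) and 1.78 (SE 0.58, adjusted p = 0.116). Psme2b, a near copy of Psme2 with which reads may be shared, had 10.1, 10.5 and 7.54 CPM in the AMH libraries, against 3.33, 1.496 and 4.16 CPM in the controls, and its log2 fold change was 1.65 (SE 0.42). Psme3 (chromosome 11, 101316213 to 101323537) had 255, 277 and 371 CPM in the AMH libraries, against 477, 483 and 392 CPM in the controls. Every AMH library lay below every control, and AMH 3 came closest. Psme4 (chromosome 11, 30771726 to 30880361) had 121, 125 and 184 CPM in the AMH libraries, against 217, 221 and 184 CPM in the controls, where AMH 3 lay just inside the control range. The log2 fold changes were -0.58 (SE 0.20, adjusted p = 0.117) for Psme3 and -0.53 (SE 0.21, adjusted p = 0.124) for Psme4. Psme1 per length was 31.2, 28.9 and 14.5 percent of Psme3 in AMH 1, 2 and 3, against 5.19, 1.24 and 9.99 in controls 1, 2 and 3, so Psme3 stayed the most abundant activator in every library, while Psme4 held at 15.9 to 17.5% of Psme3 in all 6.

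Among the assembly chaperones, Psmg1, which pairs with Psmg2 on the alpha ring, had 39.1, 36.9 and 43.6 CPM in the AMH libraries, against 47.4, 48.2 and 39.4 CPM in the controls, with overlap. Psmg2 had 11.2, 11.9 and 8.32 CPM in the AMH libraries, against 3.51, 1.09 and 7.36 CPM in the controls, without overlap. The partners thus had log2 fold changes of -0.17 (SE 0.17) for Psmg1 and 1.39 (SE 0.64) for Psmg2. Psmg3 and Psmg4, which also pair, had like values of 0.89 (SE 0.25) and 1.01 (SE 0.28). Psmg3 had 12.3, 11.9 and 8.91 CPM in the AMH libraries, against 5.72, 5.74 and 6.46 CPM in the controls. Psmg4 had 7.96, 7.63 and 5.95 CPM in the AMH libraries, against 4.28, 3.20 and 3.25 CPM in the controls. Psmf1, an inhibitor of the core, had 38.8, 36.5 and 34.9 CPM in the AMH libraries, against 39.7, 53.8 and 34.2 CPM in the controls, and its log2 fold change was -0.21 (SE 0.21). Psmc3ip had 2.43, 2.17 and 1.79 CPM in the AMH libraries, against 1.04, 2.82 and 1.55 CPM in the controls, and its groups overlapped.

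The core was set against the caps. Summed core FPKM was 739, 678 and 653 FPKM in AMH 1, 2 and 3, against 528, 462 and 555 FPKM in controls 1, 2 and 3. Summed cap FPKM was 839, 773 and 804 FPKM in AMH 1, 2 and 3, against 759, 702 and 761 FPKM in controls 1, 2 and 3. The core sums did not overlap between groups, at 690.1 ± 44.2 FPKM in AMH and 515 ± 48.2 FPKM in control libraries (SD, n = 3 each), and neither did the cap sums, which lay closer together at 805 ± 33.00 FPKM in AMH and 741 ± 33.4 FPKM in control libraries. In CPM, which does not divide by length, the cap sums overlapped and their direction turned, at 2951 ± 239.9 CPM in AMH and 3129.5 ± 74.1 CPM in control libraries. The core to cap ratio was 0.881, 0.878 and 0.812 in AMH 1, 2 and 3, against 0.696, 0.657 and 0.729 in controls 1, 2 and 3. Every AMH library lay above every control, and the ratio does not depend on the scaling of a library. With only the 14 standard core genes it was 0.861, 0.858 and 0.799 in AMH 1, 2 and 3, against 0.689, 0.655 and 0.721 in controls 1, 2 and 3. The beta ring held most of the difference in core sums, with summed FPKM of 394, 357 and 347 FPKM in AMH 1, 2 and 3, against 225, 182 and 261 FPKM in controls 1, 2 and 3, while the alpha ring had 345, 321 and 307 FPKM in AMH 1, 2 and 3, against 303, 279.7 and 295 FPKM in controls 1, 2 and 3. Within the caps, the ATPases had summed FPKM of 200.4, 164 and 156 FPKM in AMH 1, 2 and 3, against 87.1, 71.6 and 120.3 FPKM in controls 1, 2 and 3. The non-ATPases had 472, 435 and 468 FPKM in AMH 1, 2 and 3, against 471, 443 and 466 FPKM in controls 1, 2 and 3, with no separation of the groups.

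**Figure D3:**
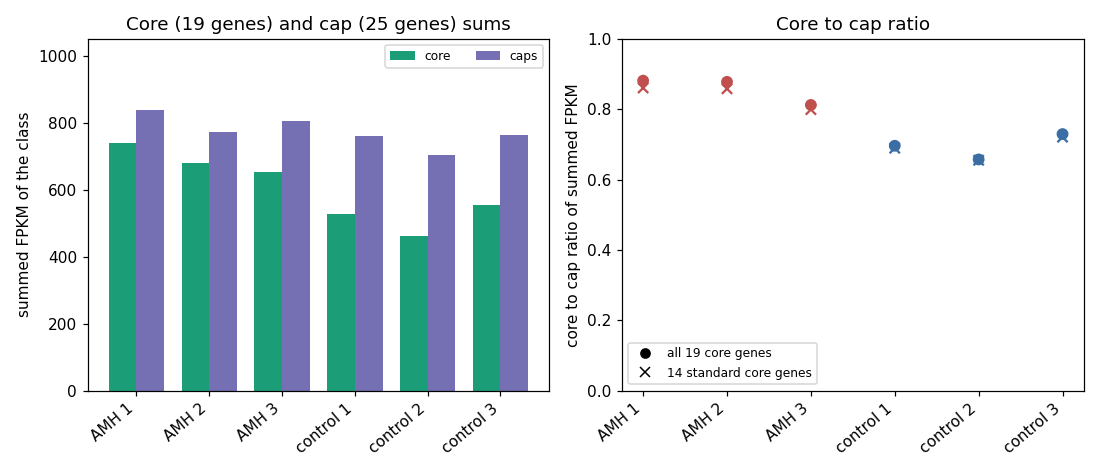
Left, summed FPKM of the 19 core genes and the 25 cap genes in each library. Right, their ratio in each library, with all core genes (circles) and with the 14 standard ones (crosses), AMH in red and control in blue; the 3 AMH libraries lie from 0.812 to 0.881, above the 3 controls.

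How far fold changes per gene divided core from caps depended on the genes counted in each class. The core median of 1.09 stood 0.71 above the cap median, but it includes the 5 genes of variant subunits. The 14 standard core genes had a median of 0.60. The caps without the chaperones Psmd5, Psmd9 and Psmd10 had a median of 0.57, so the difference between these classes was 0.024, a choice made after the values were seen. The 2 cuts were not alike, since the variant subunits left the core while all 5 activators stayed in the caps. The activators had a median of 1.61, with 3 positive and 2 negative. The median of all 25 caps was 0.38. The families within the classes were further apart: 1.31 for the beta ring, 0.60 for the alpha ring, 0.94 for the ATPases, 0.34 for 8 lid genes and 0.056 for the base subunits Psmd1, Psmd2 and Psmd4.

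Levels of the standard core genes and of the lid genes were more alike in AMH than in control libraries. The like spread of genes outside the proteasome was not measured, so this cannot be called particular to subunits. Among the 14 standard core genes, which contribute equally to the finished particle, the highest FPKM was 14.6, 16.8 and 22.01 times the lowest in AMH 1, 2 and 3, against 53.5, 62.2 and 32.05 in controls 1, 2 and 3. The coefficient of variation of FPKM over these genes was 61.9, 64.7 and 67.1 percent in AMH 1, 2 and 3, against 85.5, 98.9 and 76.8 in controls 1, 2 and 3. Neither range overlapped between groups. Psmb7, whose counts are uncertain beside Nek6, was the lowest of the 14 in every library. Without it, a choice made after the values were seen, the highest FPKM was 8.09, 8.33 and 11.4 times the lowest in AMH 1, 2 and 3, against 20.9, 34.9 and 15.8 in controls 1, 2 and 3, and the coefficient of variation was 55.3, 58.04 and 60.3 percent in AMH 1, 2 and 3, against 78.6, 92.3 and 70.01 in controls 1, 2 and 3, again without overlap. For the 8 lid genes the highest FPKM was 5.39, 6.20 and 9.12 times the lowest in AMH 1, 2 and 3, against 33.4, 90.2 and 11.9 in controls 1, 2 and 3, and for the 6 ATPases 3.81, 3.58 and 4.56 times in AMH 1, 2 and 3, against 4.55, 8.15 and 4.09 in controls 1, 2 and 3, where the groups overlapped.

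The same pattern showed over all members as a relation of level and fold change. Over the 50 members, log2 fold change went with log2 control FPKM at Pearson's r = -0.39 and Spearman's rho = -0.61, a description over genes that share libraries, and control values enter both sides. With the level taken from control 1 alone and the change from the other controls, they were -0.34 and -0.59. With mean FPKM over all 6 libraries as the level, they were weaker, at -0.21 and -0.47. For all 18868 genes tested, log2 fold change went with log2 mean CPM at r = -0.18 and rho = -0.14. Members under 10 mean CPM over all libraries had a median of 1.39 (9 genes), beside 0.22 for all 10010 genes tested in that range. At 30 to 100 CPM it was 0.65 (23 genes), beside -0.16 for all. At 100 to 300 CPM it was -0.22 (7 genes), beside -0.52, and at 300 to 1000 CPM -0.39 (5 genes), beside -0.61. The medians of all genes were also lower at high than at low CPM, and members stood above them in each of these ranges. Gene length moved with fold change too. The median was 1.01 for 17 members under 2000 bases, 0.71 for 22 from 2000 to 4000 bases and -0.39 for 11 longer ones, beside -0.14, 0.21 and -0.057 for all genes tested. The part of length in the result was not tested.

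**Figure D4:**
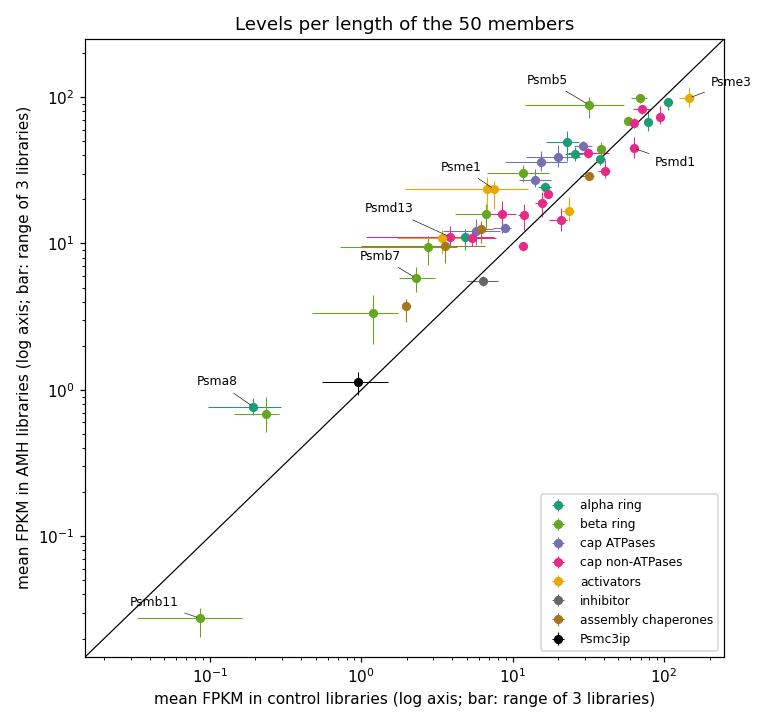
Mean FPKM of each member in AMH (vertical) against control libraries (horizontal), both on log axes; bars are the range of 3 libraries, colours families, and the line marks equal levels. Members below about 30 FPKM in controls mostly lie above the line, and several of the most abundant, such as Psme3 and Psmd1, lie below it.

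Genes around the proteasome were counted on lists drawn up with earlier results of these data known. As for the members, edgeR called none of their genes, so counts at an unadjusted p under 0.05 are given, a measure met by 20.2% of all genes as higher and 17.3% as lower. All 4 ubiquitin genes were higher by this measure, with a median log2 fold change of 1.70. Rps27a, which fuses ubiquitin to a ribosomal protein, had 42.7, 31.8 and 33.4 CPM in the AMH libraries, against 9.20, 3.77 and 7.81 CPM in the controls, and its log2 fold change of 2.37 (SE 0.37, adjusted p = 0.116) was above that of every member. It has processed copies that may take reads. For the activating enzymes Uba1 and Uba6 all AMH libraries were below all controls, with log2 fold changes of -0.17 (SE 0.15) and -0.37 (SE 0.18). Among 11 measured proteasome partners without a Psm name the median was -0.080, with 2 of the 11 higher and 4 lower, beside 20.2% and 17.3% of all genes. The small cap subunit Sem1 had 48.00, 43.6 and 39.5 CPM in the AMH libraries, against 28.4, 21.96 and 27.6 CPM in the controls. Pomp, the chaperone of beta ring assembly, had 42.1, 37.1 and 35.6 CPM in the AMH libraries, against 24.1, 19.97 and 25.3 CPM in the controls. Ube3c, a ligase bound to proteasomes, went the other way, with 121, 88.6 and 137 CPM in the AMH libraries, against 175, 170.4 and 175 CPM in the controls. Ubqln1, a shuttle receptor that brings ubiquitinated proteins, had 719, 859 and 1025 CPM in the AMH libraries, against 1469, 1519.8 and 1223 CPM in the controls, with every AMH library lower.

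Nfe2l1 is the transcription factor known to raise subunit genes together when proteasome activity falls, after cutting by Ddi2. Its own log2 fold change was -0.27 (SE 0.17). Ddi2 had 224, 296 and 300.0 CPM in the AMH libraries, against 510.1, 525 and 399 CPM in the controls, with every AMH library lower and a log2 fold change of -0.81 (SE 0.20, adjusted p = 0.116). Nfe2l2, its relative in the oxidative stress response, had 101, 96.6 and 71.6 CPM in the AMH libraries, against 51.2, 41.01 and 64.2 CPM in the controls. The 7 genes of this list had a median of -0.19, with 2 higher and 2 lower, beside 20.2% and 17.3% of all genes. All 13 antigen processing genes, the partners of the immunoproteasome, had positive log2 fold changes with TMM, with a median of 1.21, and 7 of the 13 were higher at an unadjusted p under 0.05, beside 20.2% of all genes. B2m, the light chain of MHC class I, had 43.7, 48.2 and 31.8 CPM in the AMH libraries, against 15.9, 12.2 and 21.9 CPM in the controls. H2-D1, a heavy chain, had 146, 138 and 96.3 CPM in the AMH libraries, against 29.9, 13.4 and 65.99 CPM in the controls. In both, control 3 was the highest control, as it was for Psme1 and Psmb10.

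Other cell types moved with these results. The cumulus and granulosa sum was high in AMH libraries and control 3 and low in controls 1 and 2. Of 37 members with a positive log2 fold change, 30 had their highest control value in control 3. The like share of all genes is not given here, so this count cannot be called particular to the members. In 31 members every control, control 3 included, lay below every AMH library, beside 26.9% of all genes tested. The cumulus and granulosa markers did not move alike: 6 of the 19 also had every AMH library above every control, 1 had every AMH library below, and 12 overlapped. With the cumulus sum as a covariate the core median was 0.65 and the cap median 0.34, beside 0.047 for all genes. With it 10 members had an unadjusted p under 0.05 in edgeR's test, beside 31 without it. The share of all genes at that p with the covariate is not given here, so the count cannot be set against it. Immune markers summed to 108 to 141 CPM in AMH libraries and 19.4 to 54.2 CPM in controls, in the same direction as Psmb8, Psmb9, Psmb10, Psme1 and Psme2. Of the 14 immune markers 12 had positive log2 fold changes, while Ptprc (-0.66, SE 0.73) and Cd3e (-1.69, SE 1.38) had negative ones. Erythroid markers summed to 357, 29.9 and 22.8 CPM in AMH 1, 2 and 3, against 1.88, 1.11 and 5.64 CPM in controls 1, 2 and 3, so AMH 1 stood apart. Endothelial markers summed to 107 to 177 CPM in AMH and 184 to 226 CPM in control libraries, and theca and stroma markers to 5.55 to 22.4 and 3.85 to 28.8 CPM. Pecam1 held most of the endothelial sum, at 87.5 to 143 CPM in AMH and 145 to 187 CPM in control libraries. Of the 4 endothelial markers tested 3 had negative log2 fold changes, and Cdh5 had a positive one of 1.48 (SE 0.69). The part of these other cell types, cumulus cells included, in the members' values was not tested. The cumulus covariate cannot measure it, since the cumulus sum followed group in every library but control 3.

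Libraries 3 of both groups decided how many members were called. Without control 3 edgeR called 26 members higher and 1 lower, beside 26.8% and 11.2% of all genes. The 26 were 11 core, 12 cap and 3 other genes, and the 1 lower was Psmb11. Without AMH 3 it called 0 higher and 5 lower, beside 1.45% and 6.73% of all genes; the 5 were Psmd1, Psmd3, Psmd11, Psme3 and Psme4. Without both it called 30 higher and 7 lower, beside 29.4% and 21.6%, and the lower ones were the same 5 caps with Psmd9 and Psma2. On leaving out any one of the other 4 libraries it called 0 members. The medians above used TMM. With upper-quartile scaling the core and cap medians were 0.88 and 0.17 (all genes -0.23), and with scaling to the oocyte list 1.86 and 1.18 (all genes 0.74). With that last scaling Psmd1, Psmd3, Psmd11, Psme3 and Psme4 turned positive, and 49 of 50 members were positive. The share of all genes that were positive with it is not given here. All 23 oocyte markers tested were negative with TMM (-1.68 to -0.46, median -0.84), so scaling to their sum shifts log2 fold changes upward. The lower values of these abundant caps are thus lower relative to all genes and not relative to the oocyte marker sum.

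**Figure D5:**
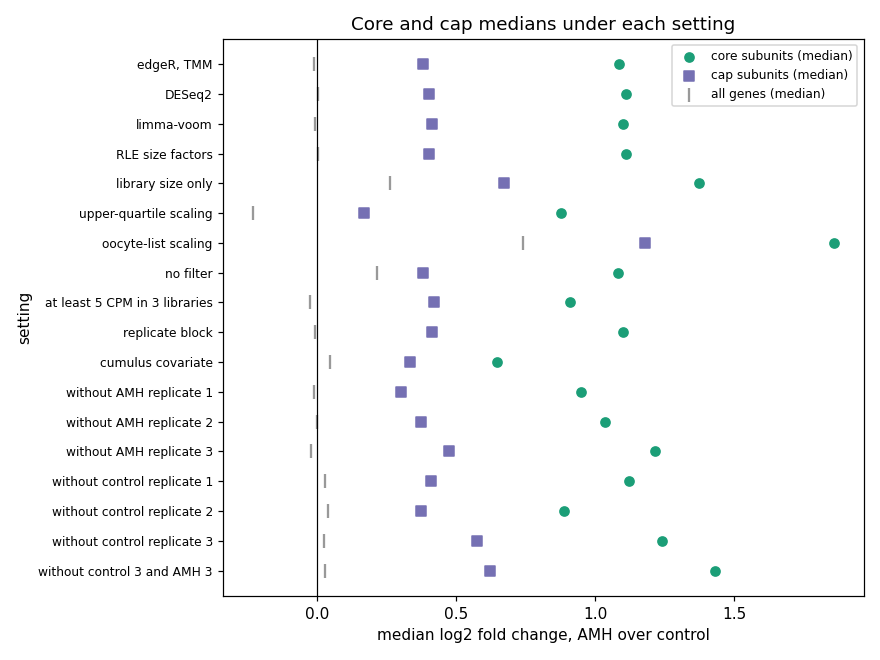
Median log2 fold change, AMH over control, of core genes (circles), cap genes (squares) and all genes (bars) under each setting. The core median exceeds the cap median under every setting drawn, and both shift with the scaling of libraries.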

How the data were processed

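RNA of mouse oocytes captured on poly-T beads was sequenced for 3 AMH and 3 control libraries. The deposited files hold raw counts per gene and FPKM values, with 1 column per library. Among tools, the submitters' processing notes list DESeq2 1.20.0, featureCounts 1.5.0-p3 and HISAT2 2.0.5, with GRCm38 (mm10) as build. Neither their roles nor the use of strand in counting is given there. Each deposited FPKM equals the count over gene length and 1 effective library size, which is 1.05 to 1.18 of the count total in AMH and 0.924 to 0.997 in control libraries. The main test was edgeR 4.0.16 (R 4.3.3; quasi-likelihood, robust, TMM, filterByExpr, group alone) on the counts of all 18868 genes passing the filter, with Benjamini-Hochberg adjustment at 0.05; the test was tried on simulated data. DESeq2 1.42.0, limma-voom (limma 3.58.1), other scalings and filters, a cumulus covariate, a replicate block and fits without single libraries were alternatives. Standard errors come from the F statistic. Sums and medians over members are descriptions with no test. No sample column was left out.

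The members, lists and tests were chosen with earlier results of these data known. Per-library values are given for the catalytic and variant beta genes, Psma7, Psma8, activators, Psmg1 to Psmg4 and Psmf1, for the 4 genes of smallest p per direction and the 2 most abundant in each subunit family, and for up to 3 genes per pathway list. Other members are given by fold change. Some genes of the pathway lists are not reported here. Same-numbered libraries did not deviate together (r = 0.060, -0.10, -0.25 for numbers 1, 2 and 3), so they were not paired. Of the members' spans, 24 overlap another gene, 13 of them a protein-coding one. Promoters are from RefSeq, GRCm38.p6.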

Additional observations from a re-analysis of the deposited data

How the results depend on the processing

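edgeR called 0 members in either direction with TMM, RLE, library size only, upper-quartile and oocyte-list scaling, no filter, at least 5 CPM in 3 libraries (46 members left), the cumulus covariate and the replicate block. Under the replicate block 24 members had an unadjusted p under 0.05 (the share of all genes under it is not given here), and the core and cap medians were 1.10 and 0.41. DESeq2 called 24 higher. edgeR without control 3 and AMH 3 called 30 higher and 7 lower. Leaving out 1 library at a time gave 0 to 26 higher and 0 to 5 lower. The core median was 0.89 to 1.24 and the cap median 0.30 to 0.57 over those settings, with a difference of 0.51 to 0.74. Without control 3 and AMH 3 the medians were 1.43 and 0.62. The cap median was 0.67 under library size only and 0.17 under upper-quartile scaling, and scaling to the oocyte list gave medians of 1.86 and 1.18. The cumulus covariate gave a core median of 0.65 and a difference of 0.31. The 14 standard core genes had a median of 0.60, which differed from all caps by 0.22 and from caps without base chaperones by 0.024. The core to cap ratio was 0.522 in AMH and 0.412 in control libraries from summed CPM, and 1.26 and 1.03 from median FPKM; the cause was not tested beyond the change of unit or summary itself. Log2 fold changes of members that edgeR did not call changed sign: with library size only Psma1 0.25, Psma2 0.035, Psma7 0.060, Psmg1 0.098, Psmf1 0.072; with upper-quartile scaling Psmd2 -0.034, Psmd4 -0.18, Psmb3 -0.019, Psmc3ip -0.011; with oocyte-list scaling Psme3 0.14, Psme4 0.18, Psmd1 0.21, Psmd11 0.32, Psmd3 0.32, Psmd5 0.46, Psmd9 0.19, Psma1 0.71, Psma2 0.48, Psma7 0.56, Psmg1 0.57, Psmf1 0.58. They also changed sign with the cumulus covariate (Psmd2 -0.029, Psmd7 -0.084, Psmf1 0.11), with at least 5 CPM (Psma1 0.012), and for Psmd4 (-0.015 to 0.080), Psma1 (-0.12 to 0.036) and Psmc3ip (-0.045 to 0.71) on leaving out 1 library. Counting error is largest for Psmb11 and Psma8, which had the fewest counts.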

Other observations

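Neighbouring systems were counted like the members, and edgeR called none of their genes. The COP9 signalosome, whose subunits resemble the lid, had a median log2 fold change of -0.11 over 10 genes, of which 3 were higher and 1 lower at an unadjusted p under 0.05, beside 20.2% and 17.3% of all genes tested. Cops5, its metalloprotease and the relative of Psmd14, had 45.5, 39.4 and 33.8 CPM in the AMH libraries, against 23.2, 18.9 and 27.8 CPM in the controls. Cops8 had 260.2, 261 and 383 CPM in the AMH libraries, against 474, 464 and 383 CPM in the controls, with AMH 3 next to control 3 as for Psme4. Of 34 tested ubiquitin-conjugating enzymes of 37 on the list, the median was 0.090, with 8 of the 34 higher and 11 lower by that measure, beside the same 20.2% and 17.3%. Ube2b, which acts in DNA repair, had 57.9, 54.3 and 38.2 CPM in the AMH libraries, against 27.3, 21.96 and 31.6 CPM in the controls. Ube2h had 239, 261 and 278 CPM in the AMH libraries, against 380.4, 386 and 366 CPM in the controls. Vcp, the segregase that extracts substrates, and 10 cofactors had a median of 0.74, with 6 higher and 1 lower of 11 (20.2% and 17.3% of all genes) and Vcp itself at 315 ± 30.6 CPM in AMH and 189 ± 68.95 CPM in control libraries (SD, n = 3 each). Plaa, a cofactor, had 135, 145 and 199.9 CPM in the AMH libraries, against 247, 249 and 223 CPM in the controls.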
